A study of Rattus norvegicus with 8 samples.

Results

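Protocadherins are adhesion proteins of the cadherin family that carry extracellular cadherin repeats and sit in the membranes of neurons. The genes examined were the 48 rows of the count table, among 34298, that were annotated as protein-coding and had a symbol beginning with Pcdh. The 36 clustered genes comprised 3 Pcdha, 19 Pcdhb and 14 Pcdhg models on chromosome 18, and the 12 others lay apart from the clusters. All coordinates of gene models are those of the rn6 build.

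The count table came from RNA of the orbitofrontal cortex of male Sprague-Dawley rats, adults that were 8 weeks old on arrival. Each animal received 1 µl with 5 ng of siRNA in the JetPEI transfection reagent, infused into this cortex, and tissue was taken 7 days later. Scrambled siRNA was given for 4 samples (replicates 1, 3, 4 and 5). For the other 4 (replicates 1 to 4, called knockdown after their labels) the siRNA matched the junction that closes circNrxn3, the circular transcript of the neurexin 3 locus. No genotype or other treatment differed between the groups per the labels, and no sorting of the tissue is described there. The targeting siRNA is shown because it is the agent compared with the control, with the seed of the antisense strand (bases 2 to 8) in capitals.
sense: uccaaaggcuagacaggaauu
antisense: uUCCUGUCuagccuuuggauu

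In the clustered families many alternative first exons lie in a row, each with its own promoter. Each Pcdha and Pcdhg first exon encodes a whole extracellular region and is spliced to constant exons shared by its cluster, whereas Pcdhb genes have no constant exons. A neuron uses a few of these promoters, largely at random, and the resulting proteins recognise identical partners on other cells, which underlies the self-avoidance of dendrites. The promoters share a conserved element with the core CGCT that is bound, with neighbouring sites, by the insulator protein CTCF, which acts together with cohesin. The non-clustered protocadherins of the delta-1 and delta-2 classes each have their own gene and act in axon growth, synapse formation and cell sorting.

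A 10-base sequence that holds this core was common in Pcdhb promoters. RefSeq windows of 250 bases before to 50 after the annotated start, from the GRCr8 build and not from rn6, were found by symbol for 37 of the 48 members. The motif GGTGGCGCTG was chosen after the windows were seen, as the most frequent of its length in those of the clustered members, and was found in 13 of 15 Pcdhb windows (86.7%). It was found in 0 of 11 Pcdhg windows, in 0 of 11 windows of non-clustered members and in 74 of all 33469 windows (0.221%), on either strand. Of the 74 windows, 15 had protocadherin symbols. The core alone was in 60.9% of all windows, in 14 of 15 Pcdhb, 10 of 11 Pcdhg and 9 of 11 non-clustered windows. The motif was picked over 15 Pcdhb and 11 Pcdhg windows together, so its absence from Pcdhg windows concerns this spelling only. In the 13 Pcdhb windows the motif began 46 to 208 bases before the annotated start, and the 2 Pcdhb windows without it were those of Pcdhb1 and Pcdhb15. The 6 sites shown have the motif in capitals and come from genes that span the range of levels per length among its carriers.
Pcdhb19 (chr18:29478759-29478798, plus strand): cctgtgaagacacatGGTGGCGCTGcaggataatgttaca
Pcdhb9 (chr18:29379243-29379282, plus strand): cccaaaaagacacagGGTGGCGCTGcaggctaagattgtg
Pcdhb3 (chr18:29285599-29285638, plus strand): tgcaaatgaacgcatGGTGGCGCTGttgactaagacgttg
Pcdhb14 (chr18:29431804-29431843, plus strand): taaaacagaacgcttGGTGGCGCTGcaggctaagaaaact
Pcdhb21 (chr18:29492144-29492183, plus strand): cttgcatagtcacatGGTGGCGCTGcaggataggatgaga
Pcdhb2 (chr18:29279918-29279957, plus strand): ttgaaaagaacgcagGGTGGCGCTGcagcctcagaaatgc
These genes ranged from 3.74 FPKM (read counts scaled to model length and library size) for Pcdhb19 to 0.0568 FPKM for Pcdhb2 while sharing the motif. A match is a description of letters, and binding at these sites was not measured here.

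Library facts that bear on the values are as follows. Total counts per library ran from 27589883 to 35191810 in the scrambled and from 28219271 to 35221782 in the knockdown group. Markers of cortical excitatory neurons summed to 2621 to 3030 CPM (counts scaled to library size) in scrambled and 2238 to 2835 CPM in knockdown libraries, and each of the 6 markers found in the table was detected in each library. Markers of meninges and choroid plexus summed to 15.1 to 31.1 CPM, with Kl, Folr1 and Ttr at 0 in at least 1 library. Astrocyte markers summed to 2430 to 2689 CPM in scrambled and 2121 to 2394 CPM in knockdown libraries, so that the sums did not overlap. Taken singly, 0 of the 7 genes had groups that did not overlap, against 1.65% of all genes tested with knockdown lower. The difference lay mostly in Gfap (means of 576 CPM in scrambled and 428 CPM in knockdown) and Aldoc (1199 and 1080 CPM). Gja1 was at 184 and 185 CPM. In this list 6 of 7 genes were below 0 and 0 passed the edgeR threshold. The part of astrocyte markers in the protocadherin values was not tested. Red blood cell genes summed to 607 to 2438 CPM in scrambled and 359 to 759 CPM in knockdown libraries. All 5 were lower in knockdown at an edgeR unadjusted p under 0.05, against 3.2% of all genes tested, and 0 passed the threshold. Oligodendrocyte markers summed to 1999 to 4741 CPM in scrambled and 2541 to 4158 CPM in knockdown libraries. Of these 7 genes 7 were above 0, against 51.3% of all genes tested, and 0 passed the threshold. The part of these lists in the protocadherin values was not tested. The log2 ratio of genes over 3486 bp over those shorter than 1372 bp, called the long-to-short ratio here, averaged −0.04 ± 0.09 with scrambled siRNA and 0.04 ± 0.09 after knockdown (SD, n = 4 per group). It was lowest in scrambled replicate 4 (−0.15), knockdown replicate 3 (−0.05) and scrambled replicate 3 (−0.04), and highest in knockdown replicate 2 (0.14). The host gene Nrxn3 had 344, 114, 216 and 261 counts in the scrambled and 430, 381, 82 and 268 in the knockdown libraries (log2 fold change 0.20, standard error 0.48, edgeR adjusted p = 0.948). Poly-T selected RNA does not measure the circle.

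Levels per length differed widely between members. By this measure, averaged over the 8 libraries, Pcdh8 stood at 30.4 ± 8.42 FPKM, Pcdhgc3 at 28.5 ± 5.39, Pcdh10 at 22.2 ± 4.21, Pcdh1 at 16.6 ± 4.76 and Pcdh20 at 9.22 ± 1.36 FPKM (SD, n = 8 each). Pcdh8 and Pcdhgc3 differed by less than either SD, and the Pcdhgc3 value can include reads from exons shared within its cluster. These 5 members made up 71.5% of the summed FPKM of the 48. Pcdhac1, at 4.09 FPKM, ranked below them through its model length of 27070 bp. In CPM, not scaled by length, it had 108 ± 6.93 with scrambled siRNA and 115 ± 11.7 after knockdown (SD, n = 4 per group), more than any member but Pcdhgc3, so its place depends on a model whose exons were not checked. In all, 20 members had a mean of at least 1 FPKM, among them 9 of 19 Pcdhb and 4 of 14 Pcdhg models. Pcdhb1 had 0 counts in all 8 libraries, which allows a level of up to 0.0119 CPM (3 counts over the 8 libraries, counting error only). Counts of 0 in at least 1 library occurred in 5 members. The plot of level per length shows this spread.

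**Figure D1:**
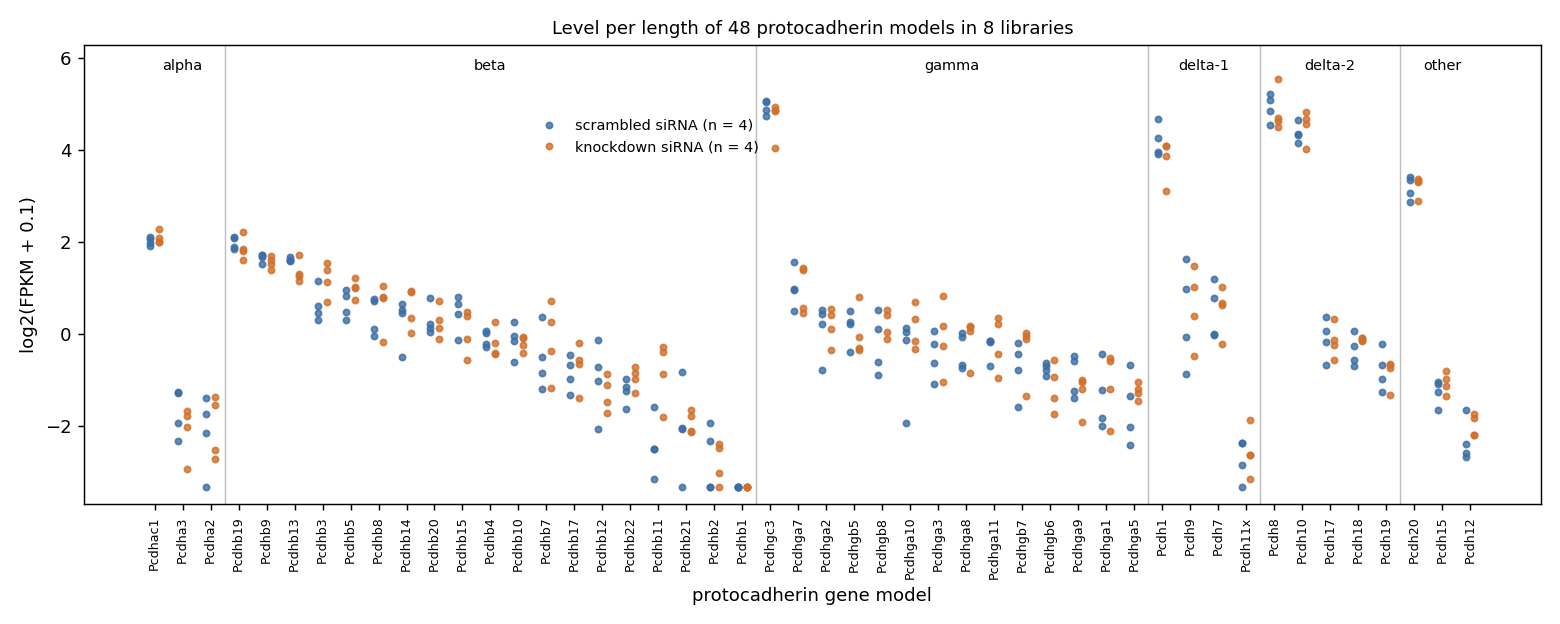
Level of each of the 48 protocadherin models as log2(FPKM + 0.1), with 1 point per library and the models ordered by level within their subgroup. Pcdh8, Pcdhgc3, Pcdh10, Pcdh1 and Pcdh20 lie above the others, and Pcdhb1 lies at the floor in all 8 libraries.

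Clustered models need care because mRNAs of a cluster share exons. Of the 36 clustered models 31, among them 18 of 19 Pcdhb and 11 of 14 Pcdhg, consist of 1 exon with a length equal to their span. None of the 36 overlapped another gene model of the table in span. Pcdhac1, with 27070 bp of exons, and Pcdhgc3, with 5288 bp, extend furthest towards the 3′ end of their clusters. In the RefSeq table of GRCr8 all 3 Pcdha members are names of a gene called Pcdha4, and the 11 other Pcdhg members listed there overlap Pcdhgc3 and share its 3′ end. Reads from constant exons can therefore come from any isoform of the cluster, and the Pcdhac1 and Pcdhgc3 counts are not the levels of those isoforms alone. The Pcdhac1 model also spans 228692 bp, and whether it holds first exons of other alpha isoforms was not checked. The exon coordinates of the rn6 models were not used here, so the share of such reads was not measured.

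The comparison of the siRNA groups asks whether an siRNA against a circular RNA of a presynaptic adhesion gene goes with altered protocadherin mRNA. Of the 46 members that passed the filter on low counts (Pcdhb1 and Pcdhb2 did not), 0 passed at an adjusted p of 0.05 in the edgeR quasi-likelihood test, against 0% of 16573 genes. Adjusted p ran from 0.833 to 0.997 over the 46 (edgeR). Limma-voom also called 0 of 46, and DESeq2 called 0 of the 39 members to which it gave an adjusted p, with 2 members each at an unadjusted p under 0.05. DESeq2 gave no adjusted p to 8 members of low counts, among them Pcdhb11 (DESeq2 unadjusted p = 0.0012). At an unadjusted edgeR p under 0.05 there were 2 members, both higher in knockdown libraries, or 2 of 46 against 5.59% of all genes tested (2.38% higher and 3.2% lower). Groups that did not overlap occurred in 0 of 46 members, against 1.82% of all genes with knockdown higher and 1.65% with knockdown lower. Log2 fold changes (knockdown over scrambled) were above 0 in 27 of 46 members, with a median of 0.09, against 51.3% of all genes and a median of 0.0066. The 3 libraries lowest in the long-to-short ratio were also removed, a choice made once the values were known. Then 20 of 46 were above 0 and the median was −0.04. The libraries removed were scrambled replicates 4 and 3 and knockdown replicate 3, which were the lowest for 12, 11 and 9 members. Removing more scrambled than knockdown libraries of this kind by itself tends to lower the fold changes, so the part of the ratio cannot be read from it. In bulk tissue fewer cells of a type and less RNA per cell cannot be told apart.

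**Figure D2:**
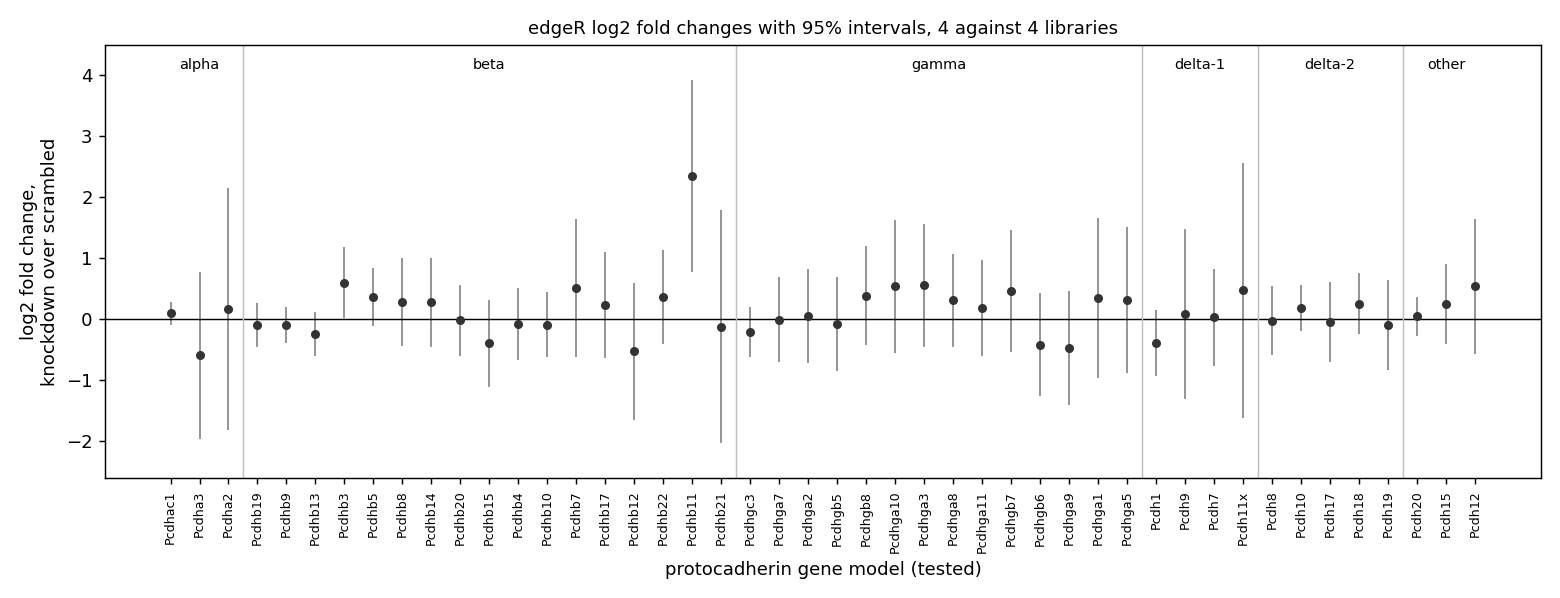
Log2 fold change of the 46 tested members, knockdown over scrambled, as points with 95% intervals from the edgeR fit. The intervals of Pcdhb11 and Pcdhb3 lie above 0 before adjustment, and those of the other 44 members include 0.

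In the alpha cluster, which encodes receptors also known as cadherin-related neuronal receptors, nearly all reads fell in the Pcdhac1 model. Pcdhac1 (ENSRNOG00000020119, 29987206 to 30215897) was at 116, 99.8, 112 and 105 CPM with scrambled siRNA (replicates 1, 3, 4, 5) and 132, 115, 108 and 107 CPM with the targeting siRNA (replicates 1 to 4). Knockdown replicate 1 was the highest and scrambled replicate 3 the lowest, and the groups overlapped. Its log2 fold change was 0.10 (standard error 0.09), with a 95% interval of −0.09 to 0.29 (edgeR adjusted p = 0.864). It was 0.03 without knockdown replicate 1 and 0.05 without scrambled replicate 3. Pcdhac1 took 98.8% to 99.8% of the counts of the 3 Pcdha models in each library. Pcdha3, an isoform chosen by its own first exon, was at 0.751, 0.746, 0.387 and 0.238 CPM with scrambled siRNA and 0.514, 0.457, 0.0720 and 0.347 CPM after knockdown. Its levels are near the limit of detection and the groups overlapped (log2 fold change −0.59, standard error 0.61, edgeR adjusted p = 0.882). Pcdha2 had a log2 fold change of 0.16, standard error 0.89.

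The beta cluster held the 2 members with the smallest p. Pcdhb11 (ENSRNOG00000020066, 30496318 to 30498636, 1 exon) had 5, 6, 1 and 16 counts with scrambled siRNA (replicates 1, 3, 4, 5) and 39, 48, 12 and 54 after knockdown (replicates 1 to 4). In CPM these were 0.179, 0.179, 0.0298 and 0.544 against 1.05, 1.57, 0.432 and 1.70. Of the knockdown libraries, 3 lay above all scrambled ones, and knockdown replicate 3 lay below scrambled replicate 5. The log2 fold change was 2.35, standard error 0.71, and did not pass (edgeR unadjusted p = 0.00746, adjusted p = 0.833). With 1 library left out in turn it ranged from 1.97 without scrambled replicate 4 to 3.17 without scrambled replicate 5, and on the log2(FPKM + 1) scale, which shrinks low genes, it was 0.44. The neighbouring models did not show this difference, with log2 fold changes of −0.09 for Pcdhb10 (standard error 0.24) and −0.52 for Pcdhb12 (standard error 0.51). Pcdhb proteins are similar in sequence, so reads may be split between copies.

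Pcdhb3 (ENSRNOG00000020095, 30381322 to 30383876) was at 5.51, 3.25, 2.92 and 3.67 CPM with scrambled siRNA and 7.35, 6.56, 3.96 and 5.36 CPM after knockdown. Scrambled replicate 1 lay above knockdown replicates 3 and 4, so the groups overlapped. The log2 fold change was 0.60, standard error 0.26 (edgeR unadjusted p = 0.0457, adjusted p = 0.833). It was 0.47 without knockdown replicate 1 (edgeR unadjusted p = 0.135) and 0.83 without scrambled replicate 1 (edgeR unadjusted p = 0.00893). Pcdhb19 (ENSRNOG00000039469, 30574627 to 30577035), the highest Pcdhb gene per length, was at 8.59, 8.65, 10.0 and 10.3 CPM with scrambled siRNA and 11.2, 7.28, 8.49 and 8.22 CPM after knockdown. Its log2 fold change was −0.10, standard error 0.16 (edgeR adjusted p = 0.927). Pcdhb9, the second Pcdhb gene by level per length, was at 9.77 ± 0.692 CPM in scrambled and 9.18 ± 0.85 CPM after knockdown (SD, n = 4 per group). Over the 17 tested Pcdhb genes, 8 had fold changes above 0 and 9 below, with a median of −0.02.

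In the gamma cluster, whose proteins are needed for survival of many interneurons and for dendrite self-avoidance, most counts fell in the Pcdhgc3 model. These can include reads from constant exons of any gamma isoform. Pcdhgc3 (ENSRNOG00000019799, 30913842 to 30969361) was at 156, 176, 141 and 178 CPM with scrambled siRNA and 88.6, 166, 154 and 157 CPM after knockdown. Knockdown replicate 1 stood apart below the other 7 libraries, which ran from 141 to 178 CPM. The log2 fold change was −0.20 (standard error 0.18), with a 95% interval of −0.61 to 0.20 (edgeR adjusted p = 0.864). Without knockdown replicate 1 it was −0.04. The sum of the excitatory neuron markers, most of it Slc17a7, was also lowest in that library (2238 CPM). So were the sums for interneurons (1083 CPM), striatal projection neurons (338 CPM), oligodendrocyte precursors (205 CPM) and red blood cells (359 CPM). The other marker lists were not lowest there, and the pan-neuronal sum was 5778 CPM, where all libraries ran from 5240 to 5934 CPM. The part of these lists in the Pcdhgc3 result was not tested.

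Pcdhgc3 took 87.3% ± 2.60 of the cluster's counts with scrambled siRNA and 83.9% ± 3.13 after knockdown (SD, n = 4 per group). The groups overlapped and the difference did not pass (2-sided exact permutation p = 0.143, adjusted 0.343 over the leading models of the 3 clusters, where 0.0286 is the smallest p possible). The 13 other Pcdhg models, named after variable first exons, had mean levels from 0.294 FPKM (Pcdhga5) to 1.96 FPKM (Pcdhga7). Pcdhga3 (ENSRNOG00000039461, 30820321 to 30822735) was at 1.86, 1.31, 0.894 and 2.31 CPM with scrambled siRNA and 0.946, 4.11, 1.80 and 2.52 CPM after knockdown. Knockdown replicate 2 was highest and the groups overlapped (log2 fold change 0.56, standard error 0.46, edgeR adjusted p = 0.851). The value was 0.14 without knockdown replicate 2 and 0.82 without knockdown replicate 1. Of the 14 Pcdhg models 9 had fold changes above 0, with a median of 0.25 and a range of −0.47 to 0.56.

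Sums of counts over the models of a cluster do not depend on how counted reads were assigned among them. Reads left uncounted as shared between copies, if any, are not recovered, since the counting settings are not given in the sources used here. The Pcdha sum was 109 ± 7.18 CPM in scrambled and 116 ± 12.1 CPM after knockdown (SD, n = 4 per group), log2 fold change 0.09 with a 95% interval of −0.10 to 0.29 (edgeR adjusted p = 0.866). The Pcdhb sum was 58.6 ± 4.85 and 61.0 ± 3.24 CPM, log2 fold change 0.06 with an interval of −0.12 to 0.24 (edgeR adjusted p = 0.910). The Pcdhg sum was 186 ± 20.1 and 168 ± 40.8 CPM, log2 fold change −0.15 with an interval of −0.54 to 0.23 (edgeR adjusted p = 0.896). For each cluster the groups overlapped. The Pcdhg value followed knockdown replicate 1 (109 CPM) and was 0.0092 without that library. In that same library the Pcdha sum was the highest of all, at 133 CPM, and without it the Pcdha value was 0.02. The Pcdhb value was 0.01 without scrambled replicate 4. Without Pcdhac1 or Pcdhgc3 in the sums, a choice made once the values were known, the direction of each turned, to −0.25 (standard error 0.52) for Pcdha and to 0.17 (standard error 0.23) for Pcdhg.

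**Figure D3:**
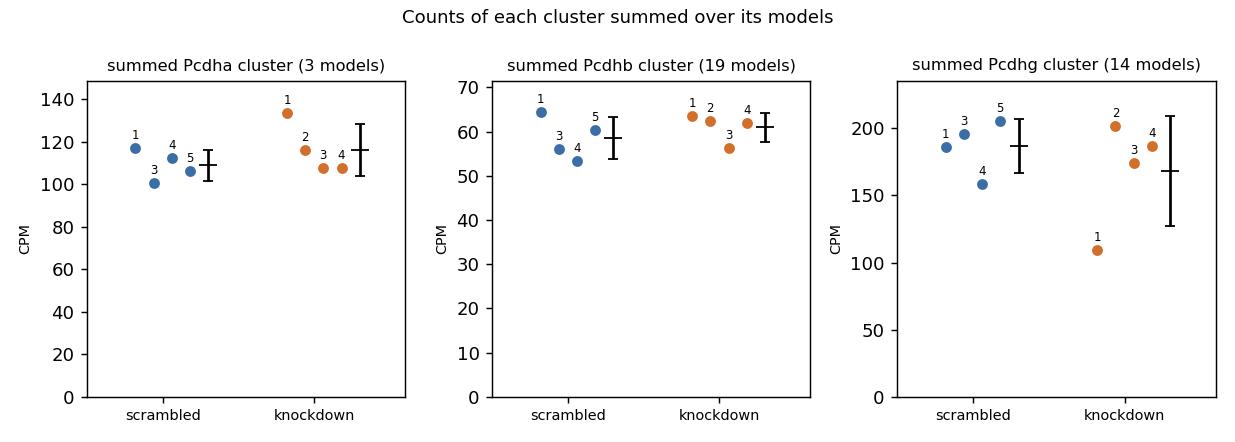
Summed CPM of the Pcdha, Pcdhb and Pcdhg models in each library (points, numbered by replicate) with the mean and SD of each group (bars, n = 4). The groups overlap in each cluster, and knockdown replicate 1 is the highest library for Pcdha (133 CPM) and the lowest for Pcdhg (109 CPM).

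Among delta-1 protocadherins, which carry a cytoplasmic motif that binds protein phosphatase 1, Pcdh1 was the most abundant. Pcdh1 (ENSRNOG00000060410, chromosome 18, 31328919 to 31343797) was at 72.5, 118, 69.8 and 89.2 CPM with scrambled siRNA and 40.3, 79.4, 67.9 and 79.1 CPM after knockdown. Scrambled replicate 3 was the highest and knockdown replicate 1 the lowest, and the groups overlapped. The log2 fold change was −0.39 (standard error 0.24), with a 95% interval of −0.93 to 0.15 (edgeR adjusted p = 0.833). It was −0.22 without scrambled replicate 3 and −0.21 without knockdown replicate 1. Pcdh11x, the X-linked member, was at 0.572, 0.239, 0 and 0.578 CPM with scrambled siRNA and 0.378, 1.08, 0.0720 and 0.378 CPM after knockdown. Its log2 fold change of 0.47 had a standard error of 0.94 (edgeR adjusted p = 0.937).

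Pcdh9 and Pcdh7 were chosen for description after their values were seen. Pcdh9 (ENSRNOG00000038068, chromosome 15, 77733402 to 77736892) had 295, 101, 52 and 193 counts in scrambled and 254, 294, 61 and 135 counts in knockdown libraries. Its model is 1 exon of 3491 bp, and whether this covers the whole transcript was not checked, so its level per length may not be that of the gene. Pcdh7 (chromosome 14, 55072200 to 55081551) had 222, 108, 108 and 172 counts in scrambled and 203, 216, 77 and 168 in knockdown libraries. Both were lowest in scrambled replicates 3 and 4 and knockdown replicate 3, the same 3 libraries that were lowest in the long-to-short ratio, and Nrxn3 was also lowest in these. Their log2 fold changes between the groups were 0.09 (standard error 0.61) and 0.03 (standard error 0.36).

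Of the delta-2 class, whose cytoplasmic parts recruit the WAVE complex of actin regulators, Pcdh8 and Pcdh10 were the abundant members. Pcdh8 (ENSRNOG00000013101, chromosome 15, 62197060 to 62200837), also known as arcadlin, is induced by synaptic activity and takes part in removal of N-cadherin from synapses. It was at 120, 109, 74.7 and 93.7 CPM with scrambled siRNA and 84.5, 153, 73.7 and 79.9 CPM after knockdown. Knockdown replicate 2 stood apart above the other 3 knockdown libraries. The log2 fold change was −0.02 (standard error 0.25), with a 95% interval of −0.59 to 0.54 (edgeR adjusted p = 0.991), and it was −0.32 without knockdown replicate 2.

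Pcdh10 (ENSRNOG00000031974, chromosome 2, 136993208 to 137014492), which takes part in activity-dependent synapse elimination, was at 83.5, 65.7, 58.7 and 67.6 CPM with scrambled siRNA and 85.8, 95.2, 54.1 and 78.4 CPM after knockdown. Knockdown replicates 1 and 2 lay above all scrambled values and knockdown replicate 3 below them. Its log2 fold change was 0.19 with a 95% interval of −0.19 to 0.56 (edgeR adjusted p = 0.865). It was 0.08 without knockdown replicate 2 and 0.32 without knockdown replicate 3 (edgeR unadjusted p = 0.0221, adjusted p = 0.542). Pcdh18 (chromosome 2, 138819960 to 138833933) was at 5.01, 2.98, 2.68 and 3.84 CPM with scrambled siRNA and 4.41, 4.21, 4.28 and 4.38 CPM after knockdown. The knockdown values lay close together, inside the scrambled range (log2 fold change 0.25, standard error 0.23, edgeR adjusted p = 0.864). Pcdh17 and Pcdh19, the latter an X-linked gene mutated in a form of epilepsy, had log2 fold changes of −0.05 and −0.10 (standard errors 0.29 and 0.33). Of the 5 delta-2 genes 2 were above 0, with a median of −0.02, and of the 4 delta-1 genes 3, with a median of 0.06.

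The remaining members were Pcdh20, Pcdh12 and Pcdh15. Pcdh20 (ENSRNOG00000013306, chromosome 15, 71772777 to 71779033) was at 53.1, 37.7, 43.1 and 55.5 CPM with scrambled siRNA and 52.1, 52.0, 38.5 and 53.6 CPM after knockdown. Scrambled replicates 3 and 4 and knockdown replicate 3 were again the lowest. The log2 fold change was 0.05 with a 95% interval of −0.27 to 0.37 (edgeR adjusted p = 0.955).

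Pcdh12 (chromosome 18, 31414250 to 31430973), a protocadherin of endothelial cells, was at 0.358, 0.298, 0.477 and 1.16 CPM with scrambled siRNA and 0.649, 1.08, 0.972 and 0.630 CPM after knockdown. Its log2 fold change was 0.54, standard error 0.50 (edgeR adjusted p = 0.866). It was 1.12 without scrambled replicate 5 (edgeR unadjusted p = 0.0396, adjusted p = 0.900) and 0.31 without scrambled replicate 3. Endothelial and mural markers summed to 94.7 to 111 CPM in scrambled and 85.8 to 115 CPM in knockdown libraries, with the Cldn5 model at 0 throughout; their part in the Pcdh12 values was not tested. Pcdh15 (chromosome 20, 14952213 to 15334745), best known from the tip links of hair cells, had 42, 58, 34 and 53 counts with scrambled siRNA and 51, 59, 62 and 53 after knockdown, and the groups overlapped. Its log2 fold change was 0.25, standard error 0.29 (edgeR adjusted p = 0.897). Markers of oligodendrocyte precursors, which express this gene in the brain, summed to 214 to 310 CPM in scrambled and 205 to 256 CPM in knockdown libraries, and their part was not tested. The span of the Pcdh15 model overlaps a further gene model.

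**Figure D4:**
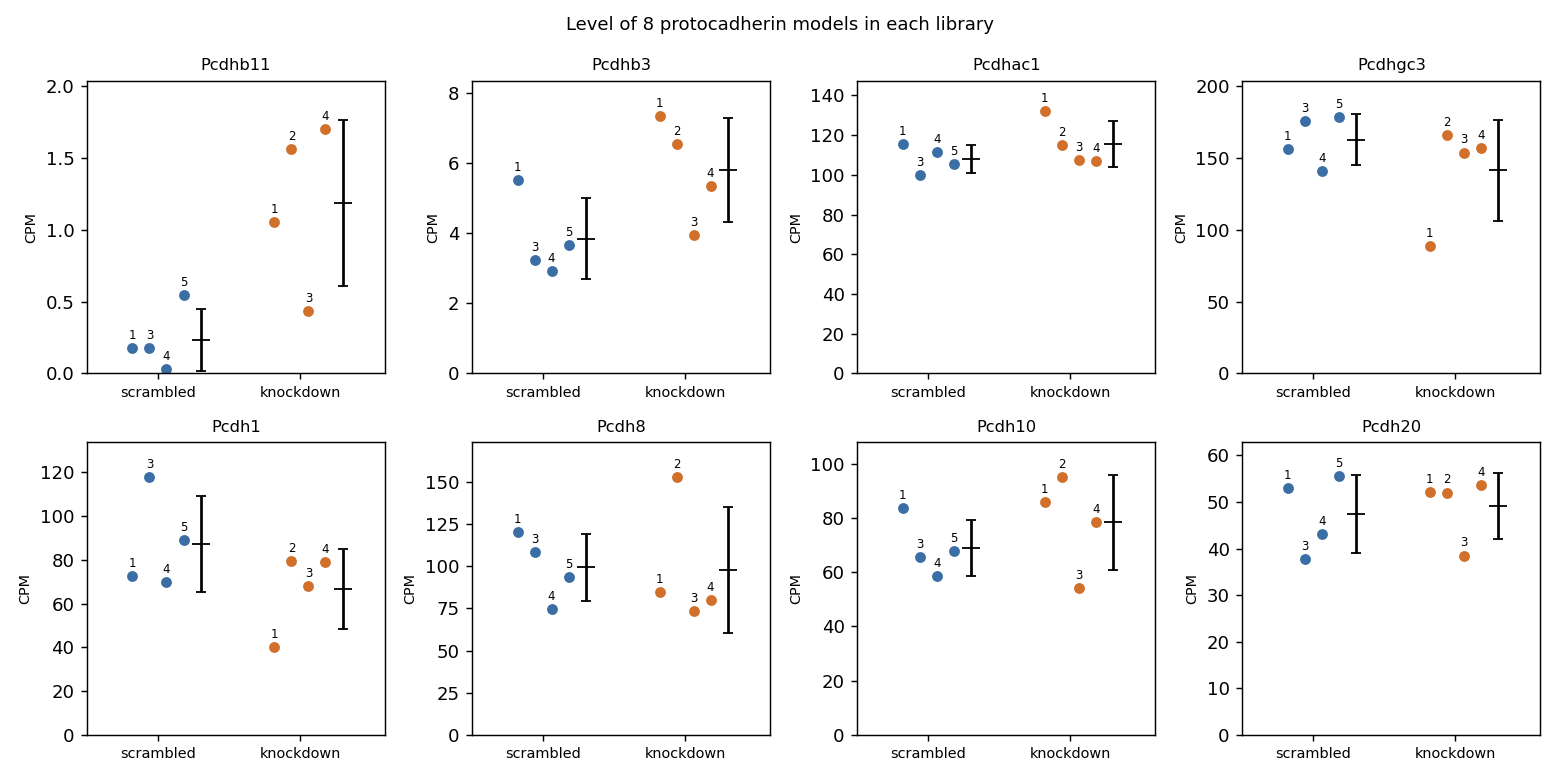
CPM of Pcdhb11, Pcdhb3, Pcdhac1, Pcdhgc3, Pcdh1, Pcdh8, Pcdh10 and Pcdh20 in each library (points, numbered by replicate), with group mean and SD (bars, n = 4). Knockdown replicate 1 is low for Pcdhgc3 (88.6 CPM) and Pcdh1 (40.3 CPM), and knockdown replicate 2 is high for Pcdh8 (153 CPM).

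Libraries differed in how often they held the highest or lowest value of a member. Scrambled replicate 1 was the highest library for 11 of the 46 tested members and knockdown replicate 2 for 10, whereas scrambled replicate 4 was the lowest for 12, scrambled replicate 3 for 11, knockdown replicate 3 for 9 and knockdown replicate 1 for 8. Scrambled replicate 5 and knockdown replicate 4 were the lowest for 0 members. The long-to-short ratio of the same libraries was 0.05 in scrambled replicate 1 and 0.08 in knockdown replicate 1, and its part in these counts was not tested. After removal of each library's trend over gene length, 25 of 46 members were above 0 and the median log2 fold change was 0.04. The edgeR dispersion of a gene, its squared variation between samples, exceeded the trend for its level in 17 of 46 members (37%), against 24.1% of all genes tested. Pcdh9 had a biological coefficient of variation of 0.596 where the trend was 0.329, and Pcdhac1 0.101 where it was 0.125.

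**Figure D5:**
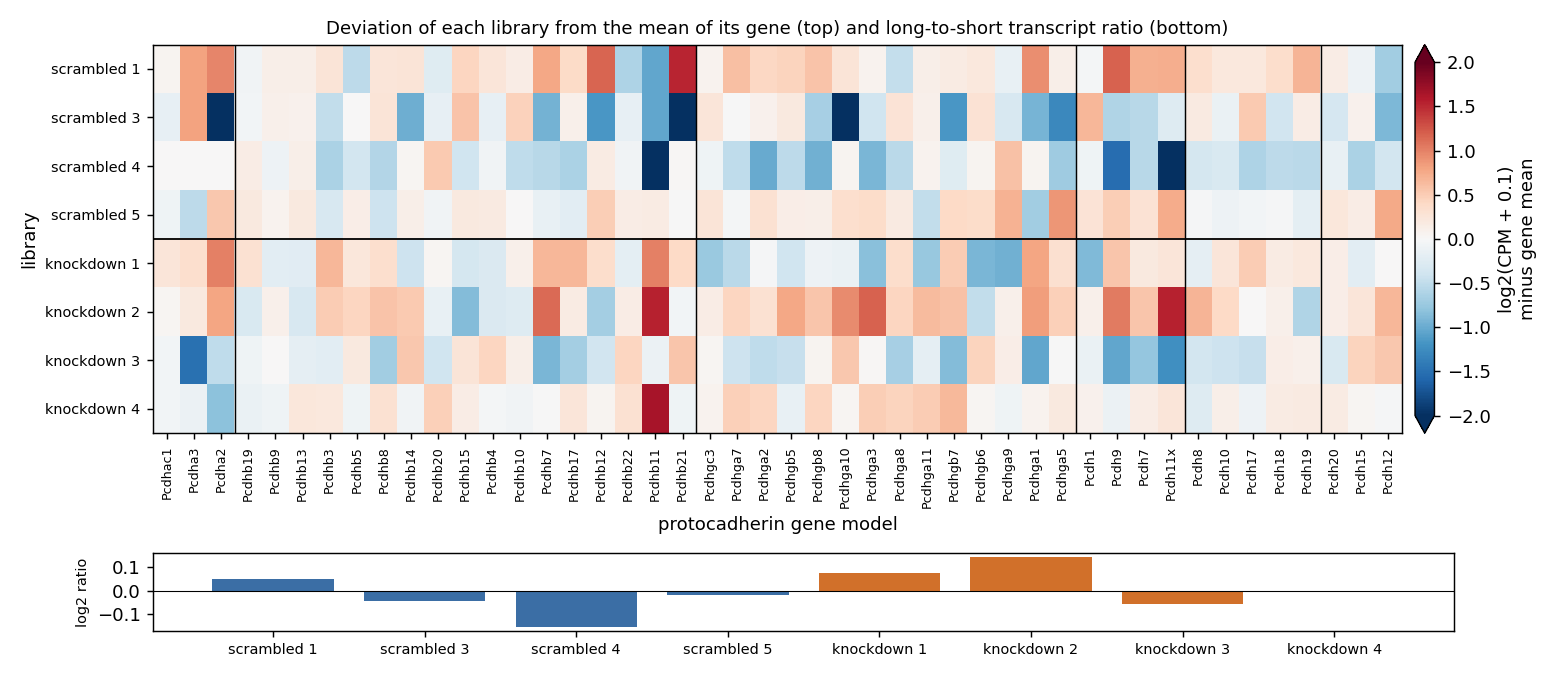
Deviation of each library from the mean of each tested member, log2(CPM + 0.1), with blue for low and red for high values, above a bar plot of the long-to-short log2 ratio of each library. Scrambled replicate 4 and knockdown replicate 3 are blue for many members, and knockdown replicate 2 is red for many.

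Genes that work with protocadherins were read from lists chosen with earlier results of these data known. Over all genes tested 51.3% were above 0, with a median log2 fold change of 0.0066. The counts above 0 in the lists were not tested against this share. Of the regulators of cluster choice and chromatin, 0 of 12 tested passed, 9 were above 0 and the median log2 fold change was 0.11. Ctcf, the insulator protein that binds cluster promoters, was at 38.8 ± 4.95 with scrambled siRNA and 45.2 ± 3.96 CPM, and Rad21, a cohesin subunit, at 61.1 ± 5.01 and 71.5 ± 10.0 CPM (SD, n = 4 each). Their log2 fold changes were 0.22 and 0.23 with standard errors of 0.10 and 0.11 (edgeR adjusted p = 0.833 each). Of the signalling partners, 0 of 15 passed, with a median of 0.04. In that list Ppp1r9b, which encodes the spine protein spinophilin, had −0.40 (standard error 0.13). Its groups did not overlap, with knockdown lower, as in 1.65% of all genes tested. Adam10, the protease that sheds several protocadherins, had 0.59 (standard error 0.24). Both had an edgeR adjusted p of 0.833. Of the WAVE complex, 0 of 9 passed and 8 were above 0, with a median of 0.09. Its subunits Nckap1 and Brk1 had log2 fold changes of 0.26 and −0.11.

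Of 15 classical and type II cadherins tested 0 passed, 12 were above 0 (51.3% over all genes tested) and the median was 0.08. Cdh18, a type II cadherin of neurons, was at 32.0 ± 1.84 and 38.3 ± 2.51 CPM (log2 fold change 0.26, standard error 0.08), and Cdh2, N-cadherin, at 69.5 ± 2.44 and 77.4 ± 2.67 CPM (0.15, standard error 0.06; SD, n = 4 each). In both, all 4 knockdown values lay above all 4 scrambled values, with an edgeR adjusted p of 0.833 each. Such a separation occurred in 1.82% of all genes tested, and these genes were picked as the smallest in p of their list. Of 12 large and atypical cadherins tested 0 passed, with a median of −0.03. Clstn2, a calsyntenin, had 0.54 (standard error 0.18) and Dchs1, a ligand of Fat4, −0.38 (standard error 0.21). Of 7 catenins tested, the cytoplasmic partners of classical cadherins, 0 passed and 6 were above 0, where Ctnna2 had 0.33 and Ctnnd2 0.15.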

How the data were processed

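The authors deposited whole-number, unscaled gene counts and, for the same genes, FPKM values. Per the submitters' processing notes fastp, HISAT2 2.0.5, StringTie 1.3.3b and featureCounts 1.5.0-p3 were used with build rn6; their roles and whether strand was used in counting are not given in the sources used here. Per the labels' protocols, RNA was poly-T selected and libraries were directional. The deposited FPKM equalled counts over model length and 1 total per library, within 0.1 percent for genes with at least 100 counts.

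Columns were matched to samples by title. Counts were fitted with edgeR 4.0.16 (R 4.3.3): filterByExpr with a minimum count of 10, TMM factors, robust quasi-likelihood F test without covariates, Benjamini-Hochberg adjustment over all 16573 genes, threshold 0.05. CPM use the TMM factors. Standard errors are the fold change over the square root of F. Cluster sums replaced their models in a separate fit of 16542 genes. The procedure was tested on simulated data with changes placed only in genes of at least 1 CPM, so recovery of changes below that level was not tested. The labels call the samples biological replicates without tying each to 1 animal. The p-values therefore weigh the group difference against the spread between these samples, which may not be that between animals.

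Alternatives were RLE and upper-quartile factors, other filters, DESeq2 1.42.0, limma-voom and limma on FPKM (limma 3.58.1), a block on replicate number, removal of each library's length trend, and each library left out. Members, lists and tests were chosen with earlier results of these data known. Values in every library are given for the 2 members of each subgroup with the smallest p and the highest by FPKM; of each list of partner genes the 2 with the smallest p are named, and others are said to be chosen later or named for their role. Of the symbols in the 6 partner lists, 3 were not found.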

Additional observations from a re-analysis of the deposited data

Results flagged for a closer look

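In 3 of 36 groups of 4 libraries examined (15 members and 3 cluster sums), 1 library lay far from the other 3 by Dixon's criterion, which chance meets in about 1 of 20 groups. Pcdhgc3 was at 88.6 CPM in knockdown replicate 1, against 154 to 166 CPM in the other knockdown libraries. Pcdh8 was at 153 CPM in knockdown replicate 2, against 73.7 to 84.5 CPM in the others. Pcdh20 was at 38.5 CPM in knockdown replicate 3, against 52.0 to 53.6 CPM in the others.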

How the results depend on the processing

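In each of the 21 alternatives 0 protocadherins passed among those given an adjusted p. DESeq2 left 8 without one (Pcdhb11, Pcdha2, Pcdha3, Pcdh11x, Pcdh12, Pcdhb2, Pcdhb21 and Pcdhga5). DESeq2 called 11 genes of the whole table against 0 in the edgeR fit, and the length trend removed with the replicate block called 14. The sums over clusters kept their direction and side of the threshold except as follows. Without the model that holds most of the counts the Pcdha sum was −0.25 and the Pcdhg sum 0.17. With each library left out in turn the Pcdhg sum ran from −0.25 to 0.0092, Pcdh8 from −0.32 to 0.083, Pcdh11x from −0.29 to 0.83 and Pcdh20 from −0.047 to 0.14. No direction turned in the others, where Pcdha3 ran from −0.84 to −0.28, Pcdhb19 from −0.23 to −0.01, Pcdh18 from 0.13 to 0.45 and Pcdh15 from 0.09 to 0.36. With the length trend removed Pcdh20 was −0.012. Without the 3 libraries lowest in the long-to-short ratio Pcdh18 was −0.025 and Pcdh20 −0.042. The cause was not tested. The groups share replicate numbers 1, 3 and 4, and deviations of same-numbered libraries correlated at 0.36, 0.28 and 0.09 across genes, so the pairing is not established; scrambled replicate 4 correlated best with knockdown replicate 3 (0.19). With the replicate block 0 members passed, the sums were 0.08, 0.07 and −0.23 for Pcdha, Pcdhb and Pcdhg, Pcdhb11 was 2.88 and Pcdhb19 was 0.021. Knockdown replicate 2 and scrambled replicate 5 have no same-numbered partner, so fold changes with the block rest on replicates 1, 3 and 4. Pcdh8 was −0.33 with this block (edgeR unadjusted p = 0.0846). That value does not draw on knockdown replicate 2, where Pcdh8 was at 153 CPM, and leaving out this library alone gave −0.32. With the length trend also removed Pcdh8 was −0.37 in the block fit (edgeR unadjusted p = 0.0385, adjusted p = 0.489). Pcdha3, Pcdhb11, Pcdh11x and Pcdh12 did not pass a filter of 1 CPM in 4 samples, and Pcdh11x also not the FPKM filter of 0.1, so these gave no value there. Low counts limit most members: 26 of the 46 tested had a mean under 1 FPKM.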

Other observations

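Models on the protocadherin clusters that carry other names were not members and are given as values. The rn6 table describes 3 protein-coding models as protocadherin gamma-A4-like, gamma-A6-like and gamma-B4-like, with 30 to 60, 28 to 121 and 23 to 54 counts per library and log2 fold changes of 0.27, −0.26 and −0.18 (edgeR adjusted p = 0.883, 0.922 and 0.941). A model described as protocadherin alpha-4 had 0 to 28 counts, and an alpha-1-like model 0 to 1. With these models in the sums, the log2 fold changes were 0.09 for Pcdha and −0.15 for Pcdhg.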
